A study of Homo sapiens with 20 samples.

Results

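Interferon-stimulated genes are the genes that a cell switches on after interferon binds its receptors, and the IRF proteins, with STAT2, are the transcription factors of that response. The group described here held 42 genes taken by gene symbol: STAT2, 6 IRF genes, and 35 genes for sensors of viral RNA or DNA, enzymes that attack viral RNA, proteins that hold virus particles back and other induced products. These were 42 of the 34439 protein-coding and lncRNA genes with transcripts in the files. They were set beside 105 other genes of the interferon pathway, also taken by symbol.

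The cells were NGP, 1 human neuroblastoma cell line, grown in 6-well plates. In the nutlin group (10 samples) they received racemic nutlin-3 at 8 µM, a small molecule that binds the ubiquitin ligase MDM2, and in the vehicle group (10 samples) they received ethanol. No interferon or virus was part of either condition, and neither the labels nor the study's methods state how long the treatment lasted. Poly(A) RNA was sequenced, and a library held 14455477 to 19532971 estimated counts in the vehicle group and 15078052 to 17442896 in the nutlin group. The study's methods call the samples of a group biological replicates of this 1 line and do not say whether they were started as separate cultures, so p-values measure the spread between these samples.

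In the classical pathway, type I and type II interferons signal through receptor pairs and JAK kinases to STAT proteins. A complex that holds phosphorylated STAT2 and IRF9 binds a short promoter element, the interferon-stimulated response element (ISRE), in many of the genes of the group. IRF3 and IRF7 act earlier, downstream of nucleic acid sensors, where they switch on interferon genes themselves. Some of the genes are also transcribed at a low level without interferon.

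The ISRE is built from copies of the core GAAA with a short gap. In RefSeq promoters of GRCh38.p14, windows of 300 bases from 250 before to 50 after a gene's start, GAAANNGAAA was searched together with its reverse complement TTTCNNTTTC. It was found in 3.57% of all 35116 windows, and 4.38% of the 27305 genes with a window held it in at least 1. Of the 42 genes, 31 had a window and 20 of these (64.5%) held the motif, 12 of them in 2 or more copies. The following 6 stretches are shown because they belong to genes with the motif that moved in different ways: IFI6 and IFI27 fell, ISG20 and IFI44L rose, and IFIT1 and ISG15 did not pass the test. Each is written 5′ to 3′ on the strand of its gene, from 180 bases before the RefSeq start towards it, and capitals mark the bases of a match. IFI6 is at chr1:27672213-27672372 on the minus strand, IFI27 at chr14:94110556-94110677 (plus), ISG20 at chr15:88638836-88638956 (plus), IFI44L at chr1:78620268-78620384 (plus), IFIT1 at chr10:89392443-89392545 (plus) and ISG15 at chr1:1013317-1013496 (plus).
IFI6: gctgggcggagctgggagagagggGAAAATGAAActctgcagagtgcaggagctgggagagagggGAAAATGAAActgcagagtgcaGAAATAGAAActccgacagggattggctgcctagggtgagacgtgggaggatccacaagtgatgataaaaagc
IFI27: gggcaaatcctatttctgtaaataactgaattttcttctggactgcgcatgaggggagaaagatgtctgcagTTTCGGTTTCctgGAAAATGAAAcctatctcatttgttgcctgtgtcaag
ISG20: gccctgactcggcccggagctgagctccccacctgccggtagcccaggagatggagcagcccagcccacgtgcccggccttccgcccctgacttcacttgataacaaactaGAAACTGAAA
IFI44L: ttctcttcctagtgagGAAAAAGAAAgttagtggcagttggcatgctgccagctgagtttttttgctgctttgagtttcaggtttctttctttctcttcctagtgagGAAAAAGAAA
IFIT1: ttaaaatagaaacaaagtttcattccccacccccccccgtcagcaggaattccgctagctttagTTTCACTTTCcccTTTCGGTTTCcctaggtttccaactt
ISG15: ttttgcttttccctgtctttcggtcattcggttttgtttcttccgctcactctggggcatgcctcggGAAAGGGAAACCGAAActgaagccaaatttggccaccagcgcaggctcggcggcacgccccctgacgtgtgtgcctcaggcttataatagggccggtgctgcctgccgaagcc
IFI6 held 3 matches, at positions -156, -115 and -93 from the start. ISG20 held 1, at -69, and the pair in ISG15, at -113 and -107, share bases. A match is a description of the sequence and not a measured binding site.

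In vehicle-treated cells the group was weakly transcribed. TPM, in which the count is divided by transcript length, allows levels of different genes to be set side by side. In the vehicle samples 25 of the 42 genes had a mean under 1 TPM, 14 lay between 1 and 10, and 3 reached 10, and the median gene was at 0.423 TPM. IRF3 was highest, at 49.98 TPM ± 2.9 (SD, n = 10), followed by STAT2 at 16.5 ± 2.5 and IRF9 at 11.1 ± 2.5. These 3 highest genes by mean were transcription factors, but IRF9 lay within its spread of EIF2AK2 (9.4 ± 1.0). The order also rests on transcripts of all types. The canonical IRF3-203, STAT2-201 and IRF9-202 had means of 6.91, 1.18 and 0.455 TPM, and the canonical EIF2AK2-201 had 7.72 TPM. After nutlin the order began with IRF3 (34.6 TPM ± 4.7), STAT2 (22.3 ± 3.2), ISG20 (17.5 ± 3.4), IRF9 (10.9 ± 2.2) and TRIM22 (10.3 ± 1.1), and the levels of IRF9 and TRIM22 lay within their spread of each other. The median gene then was at 0.438 TPM and 23 genes were under 1 TPM. The summed level of the 42 genes was 133 TPM ± 6.50 (SD, n = 10) in vehicle and 142 ± 10.4 in nutlin samples, with overlapping ranges. Without IRF3 it went from 83.3 to 108 TPM. Within that sum ISG20-207, a single transcript of 190 bases, went from a mean of 0.391 to 13.0 TPM. In CPM (counts scaled to the library size, without regard to transcript length) the sum went from 240 down to 214. The direction of the sum thus depended on the unit.

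IFIH1, which encodes the RNA sensor MDA5, and IFITM1, a membrane protein that blocks virus entry, had no count in any of the 20 samples. These counts cover only transcripts that could be assigned to a gene, 2 for IFIH1, 4 for IFITM1 and 2 for ISG15. Another 7862 transcripts were left out, and whether any belong to these genes was not examined. A count of 0 over a group allows a level of up to 0.0197 CPM in vehicle and 0.0192 CPM in nutlin samples (3 counts over the group, counting error only). SAMD9L, a brake on protein synthesis, had no count in vehicle and 4 counts in 3 nutlin samples. Near that floor were also ISG15, the ubiquitin-like modifier, with 3 counts in 2 vehicle samples and 7 counts in 5 nutlin samples, and SAMD9, with 1 count and 2 counts. IFITM1, IFITM2 and IFITM3 are closely alike in sequence, so the split of reads among them is uncertain.

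The comparison asks which of these genes differ between nutlin and vehicle. The test was the quasi-likelihood F-test of edgeR (edgeR QL) on the 27697 genes that had a count in both conditions, and a gene was called at 5% FDR after Benjamini-Hochberg adjustment over all of them. Over all genes 58.8% were called, 32.3% higher and 26.5% lower after nutlin. Of the 42 interferon genes 39 were tested, and 21 of them were called, 13 higher and 8 lower, while 18 were not called. At a mean level of 1 CPM or more 14 of 18 were called, where 80.2% of all such genes were. Under 1 CPM it was 7 of 21, where 32.9% of all such genes were called. Both shares were near the background, so that the number of calls sets the group apart in neither class. The median log2 fold change (LFC) was 0.42 over the 39 genes and 0.19 over all genes tested. It was 0.11 over the 18 genes at 1 CPM or more, against -0.08 for all genes of that abundance.

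A change of more than 1.5-fold, tested with glmTreat on the same fit, was called for 7 genes higher and 4 lower, where 15.5% and 9.65% of all genes were called. The 7 were TRIM22, ISG20, IFI16, DHX58, USP18, OAS2 and IFI35, and the 4 were CMPK2, IFI27, IFI6 and OAS1. Every nutlin sample lay above every vehicle sample for 4 genes (TRIM22, ISG20, IFI16 and OAS2) and below for 5 (CMPK2, IFI27, IRF3, IFIT5 and EIF2AK2), where 12.2% and 16.6% of all genes were so separated. MDM2, the check of the treatment, went from a median of 250 CPM in vehicle to 5659 CPM in nutlin samples, an LFC of 4.51 ± 0.07 (SE) with an adjusted p of 5.6e-29.

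**Figure D1:**
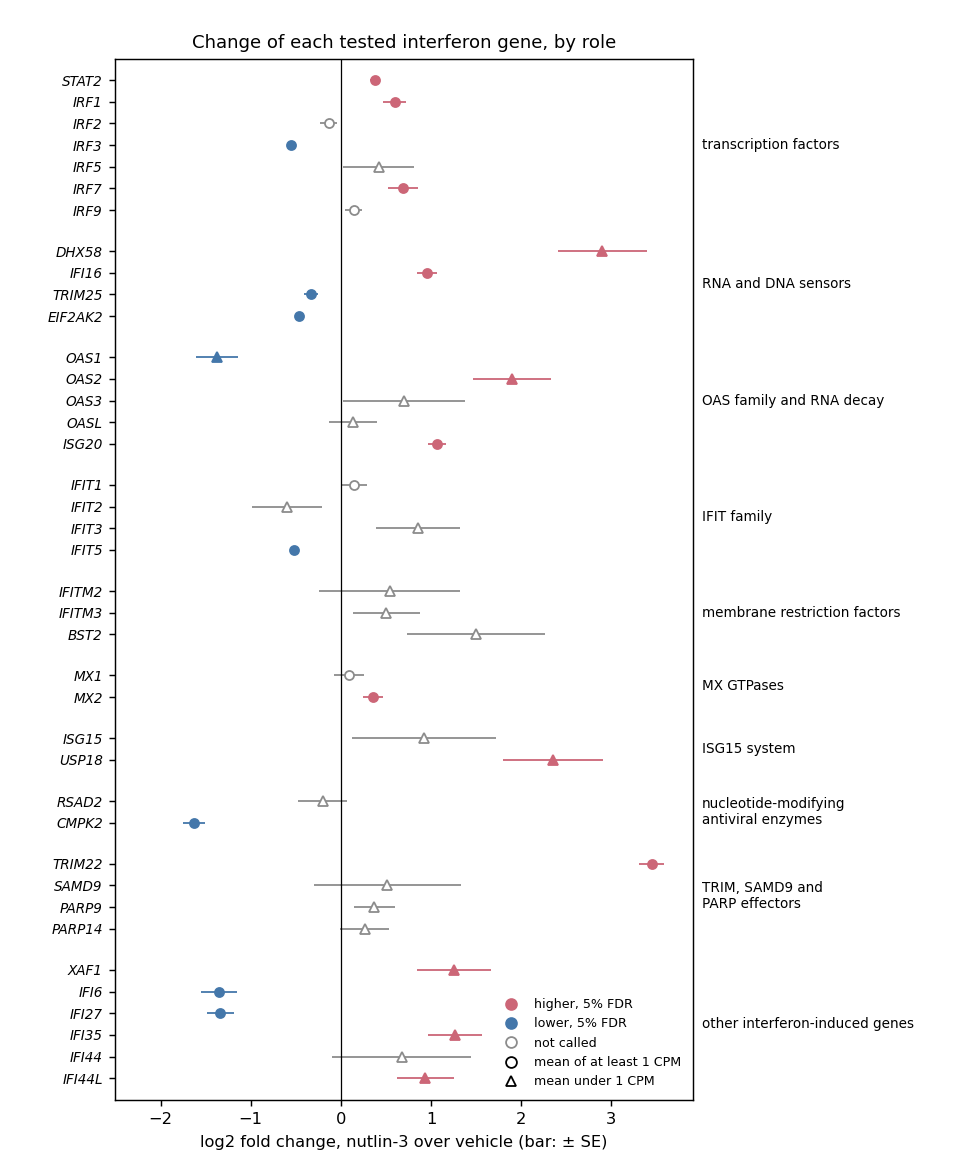
Log2 fold change of nutlin over vehicle (x axis) with its SE (bars) for the 39 tested genes, grouped by role. Filled symbols passed 5% FDR in edgeR QL, and triangles mark genes whose mean was under 1 CPM. TRIM22 (3.45) is farthest to the right and CMPK2 (-1.63) farthest to the left, and called genes lie on both sides in 4 of the role groups.

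Among the transcription factors, 3 rose and 1 fell of the 7. STAT2, the STAT that binds IRF9, had a lowest, median and highest level of 24.8, 27.5 and 34.4 CPM in vehicle and of 30.8, 36.0 and 40.1 CPM in nutlin samples. Only the highest vehicle sample reached into the nutlin range. Its LFC was 0.38 ± 0.05 (SE; edgeR QL, adjusted p = 5.2e-07). IRF3, the factor that switches on IFNB1 after viral nucleic acid is sensed, had 47.5, 49.3 and 55.9 CPM in vehicle and 32.4, 33.9 and 37.1 CPM in nutlin samples. All nutlin samples were below all vehicle samples. IRF3 thus fell by 0.56 on the log2 scale (SE 0.04, edgeR QL adjusted p = 4.5e-13), a change that did not pass the 1.5-fold test.

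IRF7, the factor that amplifies interferon-alpha transcription and is itself induced by interferon, had 0.923, 3.48 and 4.67 CPM in vehicle and 3.71, 5.43 and 6.54 CPM in nutlin samples. The groups overlapped, and 1 vehicle sample was under 1 CPM. Its LFC was 0.69 ± 0.17 (SE; edgeR QL, adjusted p = 0.00067). IRF1, a mediator of the interferon-gamma response, had 1.05, 1.46 and 1.73 CPM in vehicle and 1.51, 2.16 and 3.06 CPM in nutlin samples, again with overlap. It rose by an LFC of 0.59 ± 0.13 (SE; edgeR QL, adjusted p = 0.00027), or of 1.204 with an offset for effective transcript length.

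IRF2, IRF5 and IRF9 were not called. IRF2, which competes with IRF1 for the same sites, had 3.58, 4.64 and 5.12 CPM in vehicle and 3.41, 3.899 and 4.82 CPM in nutlin samples (LFC -0.14 ± 0.09 (SE), edgeR QL adjusted p = 0.21). IRF9, the DNA-binding part of the STAT complex, had 5.12, 7.36 and 9.11 CPM in vehicle and 6.50, 8.36 and 10.3 CPM in nutlin samples (LFC 0.14 ± 0.10, edgeR QL adjusted p = 0.23). The ranges of both overlapped, those of IRF2 almost fully. IRF5, a factor of myeloid and B cells, was at a median of 0.161 and 0.198 CPM, with 26 and 36 counts in all (edgeR QL adjusted p = 0.38). With the length offset IRF2 turned to an LFC of 0.17 and IRF9 to -0.02, both uncalled.

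**Figure D2:**
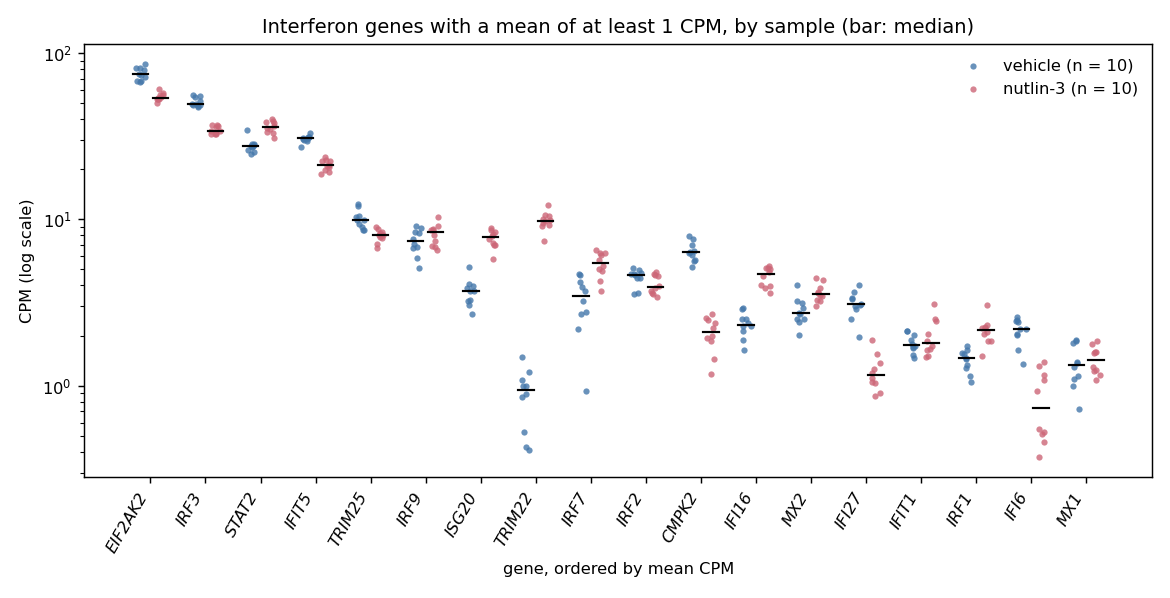
Level in CPM (y axis, log scale) of the 18 genes at a mean of 1 CPM or more, ordered by mean, with 1 point per sample and a bar at the median of each group. TRIM22 shows the widest gap, from a median of 0.944 to 9.77 CPM, and the points of CMPK2 and IFI27 separate downwards.

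TRIM22 had the largest change of the 39. It encodes a ubiquitin ligase of the tripartite motif family that restricts several viruses, and lies at chr11:5689610-5737089 (GRCh38, plus strand) among other TRIM genes. Its lowest, median and highest levels were 0.413, 0.944 and 1.48 CPM in vehicle and 7.45, 9.77 and 12.1 CPM in nutlin samples, and the groups stood far apart. The LFC was 3.45 ± 0.14 (SE), a 10.9-fold rise (edgeR QL, adjusted p = 4.1e-19). SAMD9, PARP9 and PARP14, the other tested effectors of that role group, were all under 1 CPM and none was called. PARP9 and PARP14, which modify proteins with ADP-ribose, had medians of 0.454 and 0.326 CPM in vehicle and 0.487 and 0.449 CPM in nutlin samples.

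The transcripts behind the rise of TRIM22 differed between the groups. The canonical transcript TRIM22-201 had an estimated count of 0 in all 10 vehicle samples, and of 47.8 (lowest), 67.4 (median) and 87.8 (highest) in nutlin samples, which is 673 counts in all. With 3 counts over the vehicle group as the floor, TRIM22-201 was 219-fold higher after nutlin. That floor covers counting error only and not how kallisto divided reads among the transcripts of the gene. TRIM22-210 had up to 4.07 counts in a vehicle sample. In vehicle 94.98% ± 11.9 (SD, n = 10) of the gene's counts lay on TRIM22-207, a short transcript of 4 exons that ends in an exon of its own, at chr11:5714687-5715043, where no other transcript of the annotation has an exon on either strand. After nutlin TRIM22-207 held 19.2% ± 5.5 of the counts, TRIM22-201 43.8% ± 5.0 and TRIM22-210 24.4% ± 5.6. The exons of TRIM22-201 and TRIM22-210 in the annotation add up to 2888 and 3750 bases, where the quantified transcripts had 2989 and 2008 bases, so their structure is not described. TRIM22-207 itself went from a median of 14.1 to 27.5 counts, so its share of the gene dropped while its count did not. Changes in usage were tested with diffSpliceDGE in edgeR over all transcripts, with adjusted p = 5.0e-12 for TRIM22-201, 0.00022 for TRIM22-207 and 0.0021 for TRIM22-210. Because the transcripts differ in length, an offset for effective length gave an LFC of 2.01 for the gene.

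Among sensors, IFI16, a receptor for DNA in nucleus and cytosol, rose. It had 1.64, 2.33 and 2.92 CPM in vehicle and 3.63, 4.70 and 5.22 CPM in nutlin samples, with no overlap (chr1:158999968-159055155, plus strand). The LFC was 0.95 ± 0.11 (SE; edgeR QL, adjusted p = 6.4e-09). DHX58, which encodes the RIG-I-like protein LGP2, had 6 counts over the vehicle group and 54 over the nutlin group, with a median of 0 and of 0.345 CPM (LFC 2.90 ± 0.50, edgeR QL adjusted p = 8.8e-06). It rose, but from a level at which 6 of the 10 vehicle samples had no count.

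EIF2AK2 fell. It encodes PKR, the kinase that stops translation when double-stranded RNA is bound, and was the highest of the 42 genes in CPM, with 66.9, 74.4 and 86.1 CPM in vehicle and 50.3, 53.8 and 60.3 CPM in nutlin samples (chr2:37099210-37157522, minus strand). The groups did not overlap, and EIF2AK2 fell by 0.46 on the log2 scale (SE 0.05, edgeR QL adjusted p = 3.6e-10), or by 0.26 with the length offset. TRIM25, the ligase that activates RIG-I, fell by 0.33 (SE 0.07, edgeR QL adjusted p = 0.00027), with overlapping groups and medians of 9.90 and 8.01 CPM. With the length offset TRIM25 was no longer called.

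ISG20, an exonuclease that degrades single-stranded RNA, rose among the genes for RNA decay (chr15:88635670-88656483, plus strand). It had 2.68, 3.70 and 5.20 CPM in vehicle and 5.75, 7.80 and 8.89 CPM in nutlin samples, and the groups did not overlap. The LFC was 1.07 ± 0.10 (SE; edgeR QL, adjusted p = 8.0e-11), a 2.09-fold rise in counts. In TPM the same gene went from 1.95 ± 0.78 to 17.5 ± 3.4 (SD, n = 10), and with the length offset the LFC was 3.21. Most of the difference between the scales came with ISG20-207, a transcript of 190 bases in 2 exons upstream of the annotated canonical start, with an effective length of only 50.2 to 61.1 bases. It had a median count of 0 in vehicle and of 10.7 in nutlin samples, which gave it 13.0 of the 17.5 TPM.

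The share of the canonical ISG20-201 was 8.6% ± 2.9 (SD, n = 10) in vehicle and 14.8% ± 3.5 in nutlin samples (diffSpliceDGE in edgeR, adjusted p = 0.12). The protein-coding ISG20-210 went from 6.4% ± 5.4 to 15.5% ± 4.2 (diffSpliceDGE in edgeR, adjusted p = 0.021). A retained-intron transcript, ISG20-204, held 79.4% of the counts in vehicle and 43.99% in nutlin samples, with medians of 44.5 and 49.5 counts, and its usage was not called (diffSpliceDGE in edgeR, adjusted p = 0.55). By these medians the added counts of ISG20 fell mainly on other transcripts than the one that dominated in vehicle.

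**Figure D3:**
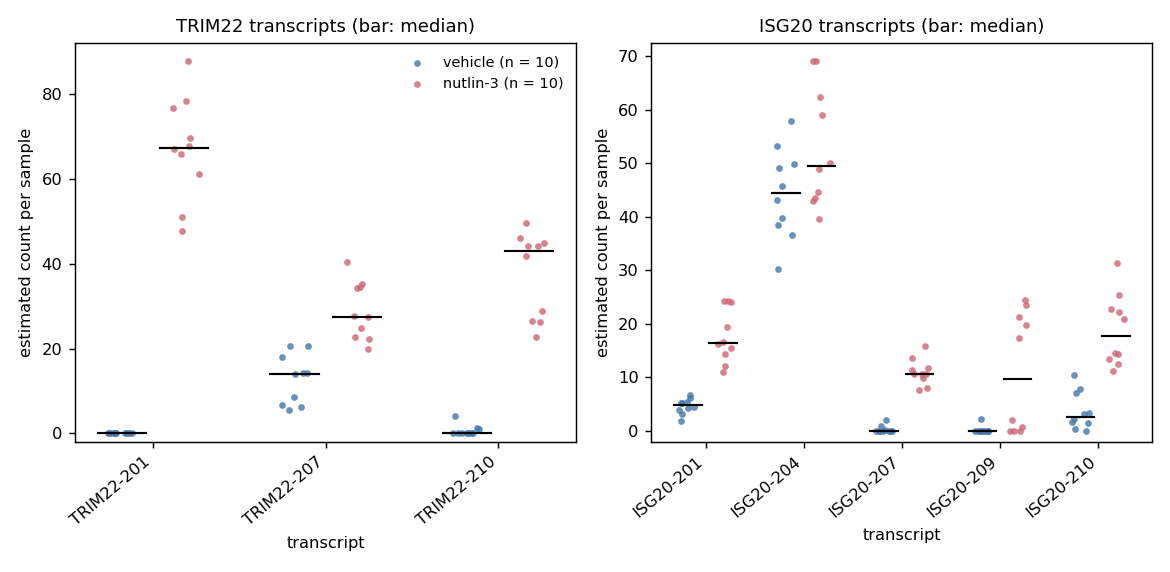
Estimated count per sample (y axis) of transcripts of TRIM22 (left) and ISG20 (right), with 1 point per sample and a bar at the median of each group. TRIM22-201 is at 0 in all vehicle samples and between 47.8 and 87.8 in nutlin samples, and ISG20-204 overlaps between the groups.

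The OAS genes encode enzymes that make 2′-5′ oligoadenylates when double-stranded RNA is bound, which activate RNase L. They lie together on chromosome 12, OASL apart from the others, and went in different directions. OAS1 fell, from a lowest, median and highest level of 0.664, 1.14 and 1.79 CPM to 0.257, 0.426 and 0.722 CPM, with a small overlap (LFC -1.37 ± 0.23 (SE), edgeR QL adjusted p = 5.9e-06). OAS2 rose from 0, 0.0699 and 0.184 CPM to 0.185, 0.325 and 0.439 CPM, with ranges that just missed each other (LFC 1.90 ± 0.43, edgeR QL adjusted p = 0.00035). OAS3, with 8 and 14 counts, and OASL, with medians of 0.442 and 0.454 CPM, were not called. The difference between OAS1 and OAS2 was not tested as such. The genes are alike in sequence, so that the split of reads among them is uncertain, and OAS2 rests on 12 and 49 counts. All counts of OAS2 lay on OAS2-203, a transcript of 2 exons that is not the canonical one.

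Of the IFIT genes, which bind foreign RNA ends and lie side by side on chromosome 10, 1 of 4 was called. IFIT5 had 27.3, 30.6 and 32.8 CPM in vehicle and 18.8, 21.1 and 23.8 CPM in nutlin samples. All nutlin samples were below all vehicle samples, and IFIT5 fell by 0.52 on the log2 scale (SE 0.05, edgeR QL adjusted p = 2.2e-11). IFIT1, the family member usually induced most by interferon, had 1.46, 1.75 and 2.13 CPM in vehicle and 1.48, 1.79 and 3.09 CPM in nutlin samples, with an LFC of 0.15 ± 0.14 (SE; edgeR QL, adjusted p = 0.38). IFIT2 (47 and 31 counts) and IFIT3 (18 and 34 counts) were not called either.

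The genes for membrane proteins were not called: IFITM2 and IFITM3, which stop fusion of virus and cell, and BST2, also called tetherin, which holds budding virus at the surface. IFITM3 had medians of 0.243 and 0.358 CPM, and IFITM2 and BST2 had at most 11 counts in a group. Of the MX GTPases, which trap viral nucleocapsids, MX2 rose slightly (medians 2.72 and 3.56 CPM, LFC 0.36 ± 0.11 (SE), edgeR QL adjusted p = 0.0060) and MX1 did not pass (medians 1.34 and 1.43 CPM, LFC 0.09 ± 0.17, adjusted p = 0.67). With the length offset the LFC of MX2 was -0.06 and not called, and 0.24% of its vehicle counts lay on transcripts typed protein_coding. USP18, the protease that removes ISG15 from proteins and dampens receptor signalling, rose from 8 to 47 counts (LFC 2.35 ± 0.55, edgeR QL adjusted p = 0.00049), with 4 and 9 samples having any.

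CMPK2 had the largest fall. It encodes a mitochondrial nucleotide kinase and lies at chr2:6840570-6866635 (minus strand), head to head with RSAD2, the gene for viperin, which makes a chain-terminating nucleotide. The annotated starts of the pair overlap, so that reads there cannot be told apart with certainty. CMPK2 had 5.20, 6.32 and 7.98 CPM in vehicle and 1.17, 2.11 and 2.69 CPM in nutlin samples, and the groups were well apart. The LFC was -1.63 ± 0.12 (SE; edgeR QL, adjusted p = 5.4e-13). RSAD2, its neighbour, had medians of 0.640 and 0.5002 CPM with full overlap and was not called (LFC -0.20 ± 0.27, edgeR QL adjusted p = 0.55).

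Of the remaining 6 induced genes 3 rose and 2 fell. IFI27, a small mitochondrial protein among the strongest interferon markers in blood, had 1.95, 3.08 and 4.05 CPM in vehicle and 0.864, 1.15 and 1.88 CPM in nutlin samples (chr14:94104836-94116695, plus strand). These ranges just missed each other, and the LFC was -1.34 ± 0.15 (SE; edgeR QL, adjusted p = 2.6e-09). IFI6, a related small protein, had 1.34, 2.20 and 2.59 CPM in vehicle and 0.370, 0.737 and 1.38 CPM in nutlin samples, with a slight overlap (LFC -1.35 ± 0.20, edgeR QL adjusted p = 9.1e-07). IFI35 (medians 0.250 and 0.582 CPM), XAF1, a pro-apoptotic protein (0.367 and 1.04 CPM), and IFI44L (0.227 and 0.512 CPM) rose, with LFC of 1.27, 1.26 and 0.93 and edgeR QL adjusted p of 0.00061, 0.0094 and 0.012. All 3 overlapped between the groups. XAF1 had no count in 1 nutlin sample and lost its call under limma voom (adjusted p = 0.092). On average 99.0% of its counts in vehicle and 93.0% in nutlin samples lay on XAF1-204, a transcript typed nonsense_mediated_decay. For IFI44L, the transcript IFI44L-209, typed retained_intron, went from a median of 2.5 to 7 counts, and the canonical IFI44L-201 had a median of 1 count in both groups. IFI44, the neighbour of IFI44L, had 2 and 4 counts.

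Set against the promoter sequences above, the motif was held by 2 of 7 genes called higher that had a window (ISG20 and IFI44L), by 4 of 7 called lower (CMPK2 was not among them), and by 12 of 14 not called. IFI6 and IFIT5, which fell, and IFIH1, which had no count, were the genes with 3 matches. With gaps of 1 to 3 bases in place of 2, 27 of 31 genes (87.1%) and 10.5% of all genes held a match. No promoter window was given for TRIM22, IRF2, IRF3, IRF7, DHX58, OAS2, OASL, IFIT2, IFITM2, MX2 and USP18.

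Transcript usage could be tested for 38 transcripts of 9 of the genes, and 6 transcripts of 4 genes were called, 4 higher and 2 lower, where 7.93% of all transcripts tested were called. Besides those of TRIM22 and ISG20 they were IRF3-203 and EIF2AK2-203. IRF3-203, the canonical transcript of IRF3, fell from 19.0% ± 4.0 (SD, n = 10) to 5.4% ± 4.7 of the gene's counts, with medians of 161 and 27.7 counts (diffSpliceDGE in edgeR, adjusted p = 0.0028). IRF3-217 spans nearly the same bases, also in 8 exons, and went from 5.7% ± 4.3 to 10.6% ± 5.0 (not called). How kallisto divided reads between such transcripts is uncertain. For 8 of the 18 genes at 1 CPM or more, less than 50% of the counts in either group lay on transcripts typed protein_coding. STAT2 (13.1% in vehicle), IRF9 (10.9%), MX1 (17.3%) and IFI27 (23.1%) were among them, so their gene-level counts are mainly counts of transcripts typed otherwise, such as retained introns, as kallisto divided them.

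Within a condition no shared variation of the genes was seen. Over 153 pairs of these 18 genes, the median Pearson correlation of deviations from the condition means was -0.02 (range -0.59 to 0.46) over the 20 samples, against 0.00 over all genes of that abundance. Counting error in genes with few counts, such as IFI6 with 6 to 21 in nutlin samples, brings such correlations nearer to 0. Absence of co-variation therefore cannot be read from them. The pairs share libraries and depth, and the values are a description.

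Of the other pathway genes 80 of 105 were tested and 54 were called, 32 higher and 22 lower. Of all genes tested 58.8% were called, 32.3% higher and 26.5% lower, and these shares also stand beside the counts of the single lists below. At a mean of 1 CPM or more 38 of 48 were called, where 80.2% of all such genes were. Under 1 CPM it was 16 of 32, where 32.9% of all such genes were called. Over 1.5-fold were 17 higher and 8 lower, where 15.5% and 9.65% of all genes were called. Of the 21 interferon genes themselves, the ligands, 16 had no count in any sample, 2 were tested (IFNA21 and IFNW1, with 3 to 5 counts per group) and neither was called. IFNB1 and IFNL1 each had 1 count, in a nutlin sample.

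Of 10 receptor and JAK-STAT genes 5 fell and 1 rose. IFNGR2, a chain of the interferon-gamma receptor, had 27.6, 29.6 and 36.7 CPM in vehicle and 16.2, 17.9 and 18.8 CPM in nutlin samples. The groups did not overlap, and IFNGR2 fell by 0.78 on the log2 scale (SE 0.05, edgeR QL adjusted p = 3.9e-14). JAK2, the kinase of the interferon-gamma receptor, was the gene that rose, from a median of 5.35 to 7.43 CPM with slight overlap (LFC 0.46 ± 0.09, edgeR QL adjusted p = 2.9e-05). IFNAR1, a chain of the type I receptor, was at 32.0 and 30.2 CPM and not called.

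Among 12 negative regulators 6 rose and 4 fell. IRF2BPL, of a family that binds IRF2, had 62.0, 75.6 and 79.3 CPM in vehicle and 121, 136 and 154 CPM in nutlin samples, with no overlap (LFC 0.87 ± 0.04, edgeR QL adjusted p = 6.1e-17). PTPN6, the phosphatase SHP-1, rose from a median of 0.879 to 1.63 CPM (LFC 0.92 ± 0.16, edgeR QL adjusted p = 8.8e-06). The groups of PTPN6 overlapped slightly. PTPN11, the phosphatase SHP-2, and PIAS1, an inhibitor of STAT signalling, fell by 0.56 and 0.52 on the log2 scale without overlap (edgeR QL adjusted p = 1.7e-15 and 5.9e-13). SOCS3 and SOCS1, which inhibit JAK kinases, are added here after their values were seen. They went from medians of 0.209 to 1.85 CPM and of 0.338 to 0.890 CPM, without overlap (LFC 2.93 ± 0.24 and 1.74 ± 0.28, edgeR QL adjusted p = 4.5e-12 and 2.5e-06).

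Of 15 other sensors and adaptors 6 rose and 4 fell. RIGI, the RNA sensor that TRIM25 activates, rose from a median of 3.10 to 4.32 CPM (LFC 0.46 ± 0.10, edgeR QL adjusted p = 0.00025). TBK1, the kinase that phosphorylates IRF3, rose from 42.5 to 49.3 CPM without overlap (LFC 0.25 ± 0.04, edgeR QL adjusted p = 9.4e-06). SAMHD1, which depletes deoxynucleotides, fell by 0.41 without overlap and TREX1, a DNA exonuclease, by 0.36 with overlap (edgeR QL adjusted p = 1.0e-09 and 0.0081), a call that TREX1 lost with the length offset. MAVS, the adaptor of the RNA sensors, was at 91.4 and 92.4 CPM and not called.

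Among 44 further interferon-inducible genes 39 were tested, of which 18 rose and 8 fell. HERC5, the ligase that attaches ISG15 to proteins, had 4.27, 5.002 and 6.26 CPM in vehicle and 25.7, 31.0 and 35.4 CPM in nutlin samples, far apart. Its LFC was 2.57 ± 0.07 (SE; edgeR QL, adjusted p = 3.7e-23). HERC6, of the same family, went from 0, 0.696 and 1.33 CPM to 2.46, 3.35 and 4.45 CPM (LFC 2.41 ± 0.27, edgeR QL adjusted p = 4.0e-09). PLSCR1, a phospholipid scramblase induced by interferon, fell from 11.2, 12.1 and 13.5 CPM to 3.07, 3.87 and 4.81 CPM (LFC -1.60 ± 0.07, edgeR QL adjusted p = 9.0e-18). UBE2L6, the conjugating enzyme for ISG15, fell from a median of 10.4 to 5.01 CPM (LFC -1.02 ± 0.09, edgeR QL adjusted p = 2.0e-11). In these 4 genes the groups did not overlap.

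**Figure D4:**
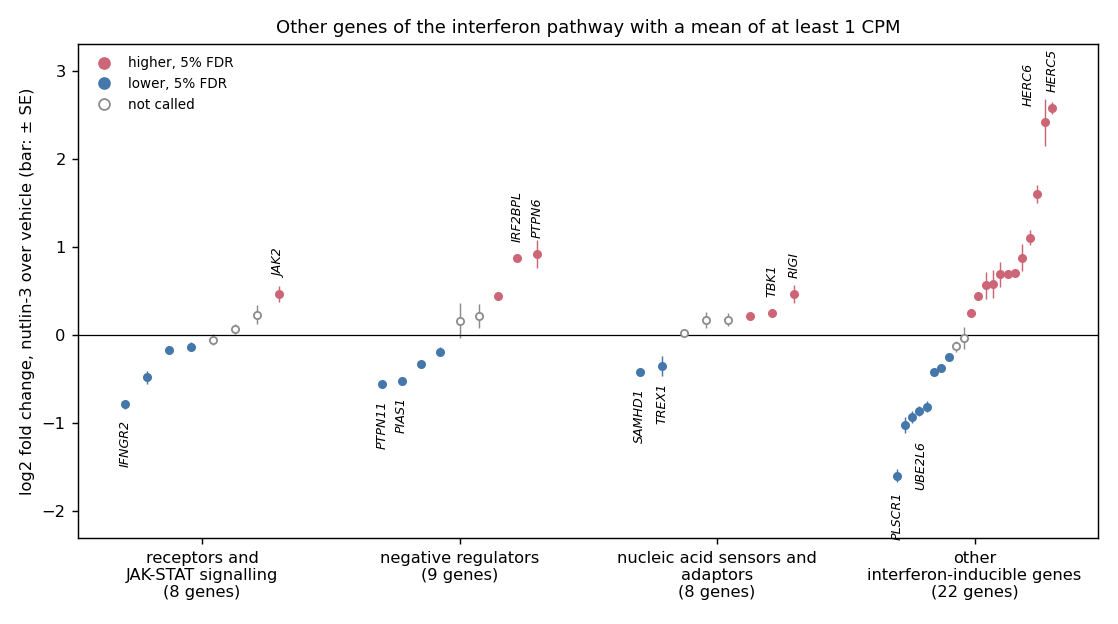
Log2 fold change of nutlin over vehicle (y axis) with its SE for the other pathway genes reported here at a mean of 1 CPM or more, in 4 lists (x axis), with named genes labelled. Filled points passed 5% FDR in edgeR QL. In each list called genes lie on both sides of 0, from HERC5 at 2.57 down to PLSCR1 at -1.60.

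The identity of the cells and the markers of others were as follows. The 9 neuroblastoma markers summed to between 3970 and 4767 TPM in vehicle and between 4383 and 5356 TPM in nutlin samples. The 7 immune markers, of cells in which these genes are often studied, summed to 0.383 to 1.38 TPM and 1.72 to 3.93 TPM, with CD3E, of T cells, at 0 in every sample. ITGAM, which encodes an integrin of myeloid cells, was the immune marker that was called (LFC 7.05 ± 0.43, edgeR QL adjusted p = 5.3e-15), and PTPRC, which defines leukocytes, had medians of 0.0956 and 0.154 CPM. The 3 endothelial markers summed to 0.147 to 1.205 TPM and 0.196 to 1.08 TPM, and the 4 fibroblast markers to 8.04 to 12.1 TPM and 9.94 to 13.1 TPM. These sums hide changes in both directions. PECAM1 rose and VWF fell among the endothelial markers (LFC 1.54 and -0.83, edgeR QL adjusted p = 4.7e-06 and 0.0014). COL1A1, a collagen chain, rose (LFC 1.98, edgeR QL adjusted p = 4.4e-20), while the other fibroblast markers PDGFRB and LUM fell (LFC -0.95 and -1.71, edgeR QL adjusted p = 1.5e-11 and 2.1e-09), and COL1A2 and CDH5 were not called. Their part in the changes of the interferon genes was not tested.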

How the data were processed

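RNA-seq of 10 vehicle and 10 nutlin samples was used, grouped by the treatment in the labels. The authors ran kallisto 0.42.4 on transcripts of GRCh38 from Ensembl release 85. Per transcript they deposited estimated counts without normalization, effective lengths in bases, and TPM values, which are estimated counts scaled by effective length and library size. The study's methods name a stranded library kit, but the strand setting of kallisto is not given in the sources used here. Reads of a gene and of an antisense partner therefore cannot be told apart with certainty, and near-identical genes share reads.

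Transcripts were assigned to genes with GENCODE release 44, which matched 191106 of 198968, and the other 7862 were left out. Estimated counts were summed per gene and rounded. Sample totals ran from 14455477 to 19532971 in vehicle and from 15078052 to 17442896 in nutlin samples. CPM were computed on TMM-scaled library sizes. Tests used edgeR 4.0.16 in R 4.3.3 (glmQLFTest, glmTreat, diffSpliceDGE) with the condition as the only term, on genes with at least 1 count per condition, or for transcripts after filterByExpr with a minimum count of 10. Scripts were tested on simulated data. The genes, lists, naming rule and tests were chosen with earlier results of these data known. Named in full were called genes at a mean of 1 CPM or more whose groups did not overlap (up to 6 in each direction), the 7 STAT and IRF genes of the group, and in each pathway list up to 2 called genes in each direction, with MDM2. A few genes of the lists are not reported here by name.

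Conditions share 8 replicate numbers (16 samples), but the same-number correlations of deviations were between -0.037 and 0.071. No pairing by number was thus detected, and neither the labels nor the study's methods state whether equal numbers mark pairs. Alternatives were DESeq2 1.42.0 and its size factors, limma 3.58.1 (voom), other filters, a length offset, a replicate block, 1% FDR and leaving out each sample. Python 3.11.15, numpy 2.4.6, pandas 2.3.3 and matplotlib 3.10.9 made tables and plots.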

Additional observations from a re-analysis of the deposited data

Results flagged for a closer look

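Among 70 sets of 10 CPM values (the genes at 1 CPM or more and the other named genes, in each group) 4 had a sample that stood apart by Dixon's criterion, and chance alone flags about 1 in 20. STAT2 was at 34.4 CPM in vehicle replicate 11, where the other vehicle samples lay between 24.8 and 28.4 CPM. IRF1 was at 3.06 CPM in nutlin replicate 3, with the others between 1.51 and 2.32 CPM. JAK2 was at 9.08 CPM in nutlin replicate 9, with the others between 6.91 and 8.05 CPM. IRF2BPL was at 62.0 CPM in vehicle replicate 4, with the others between 70.6 and 79.3 CPM. The calls of these 4 genes did not change when any single sample was left out.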

How the results depend on the processing

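None of the 42 genes was called in opposite directions under the alternatives, and DESeq2, its size factors in edgeR QL and the replicate block changed none of their calls. limma voom lost XAF1 and called IFIT3. The length offset lost TRIM25 and MX2 and called PARP9. No filter beyond 1 count in any sample added SAMD9L. The filter filterByExpr left 20 of the 39 genes, removed 5 called ones and called IRF9 (LFC 0.22, adjusted p = 0.0497). It left 4 genes higher by more than 1.5-fold in place of 7 and a median LFC of 0.19 in place of 0.42, over these 20 genes. That median was 0.34 with the replicate block on 16 samples and 0.33 on the same samples without it. Leaving out 1 sample gave 0.37 to 0.51, the highest without nutlin replicate 6, and 13 to 14 genes called higher and 8 lower.

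Apart from leaving out single samples, the LFC changed sign for 6 of the 42 genes. With the length offset these were MX2 (-0.057), which thereby lost its call, and the uncalled IRF2 (0.17) and IRF9 (-0.020). The uncalled IRF5 turned to -0.087 with the block and -0.090 on the same 16 samples without it, MX1 to -0.0050 and -0.0082, and IFI44 to -0.013 without the block. TREX1 lost its call with the offset (LFC -0.18). The summed level after nutlin over vehicle was 1.07, and 1.30 without IRF3, but 0.891 in CPM. Both TPM ratios include the short ISG20-207, which went from a mean of 0.391 to 13.0 TPM. The 4 transcripts with higher usage became 2 at 1% FDR, 2 with the block and 0 with a minimum count of 50 (in edgeR). The 2 with lower usage became 1 with the block and 1 with that minimum. TRIM22-207, TRIM22-210 and ISG20-210 reached at most 40.3, 49.5 and 31.4 counts in a sample. EIF2AK2-203 had medians of 23.5 counts in vehicle and 44.7 in nutlin samples. That minimum thus left these transcripts untested, and TRIM22-201 without another tested transcript of its gene. Their missing calls there are not a loss of significance. The cause of the other changes was not tested. Genes under 1 CPM rest on few counts, so that a missing call says little about them.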
